A study of Homo sapiens with 9 samples.

Results

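In HepG2 cells, 98 of 12798 counted features were at 0.5 times the control level or less with each of 2 guide RNAs against KEAP1. They were chosen by their measured levels in CPM, the reads of a feature scaled to a library total of 1000000. The rule asked for a mean of at least 5 CPM in the 3 control libraries and for a mean with each KEAP1 guide of at most 0.5 times that control mean. Of the 10152 features with a control mean of at least 5 CPM, 0.965% met it. In the set, 91 features carried an Entrez number that gave a gene symbol (87 protein-coding genes and 4 long noncoding RNAs), and 7 carried no number and are counted here without a name. Because the rule used these libraries, levels against the control are a description of the set and were not tested.

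HepG2 is an established line from a human liver cancer that keeps many functions of hepatocytes. The cells received lentiCRISPRv2, a virus that carries Cas9 and a guide RNA, and were selected with puromycin. The sources used here do not say whether single clones were taken. The control guide (sgCtrl) cuts AAVS1, a site used as neutral, and sgKEAP1-1 and sgKEAP1-2 cut KEAP1, with 3 libraries for each guide. The cells grew in EMEM, RNA was taken 48 h after seeding, and the libraries (QuantSeq) read the 3′ ends of transcripts. The labels do not say whether the numbered libraries of a group came from separate cultures, so p-values measure only the spread between these libraries.

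KEAP1 is the adaptor through which the transcription factor NRF2 is marked for degradation, and NRF2 that escapes it switches on antioxidant and detoxifying genes. The hepatocyte program is a different set of genes. Hepatocytes secrete albumin, clotting factors and apolipoproteins, make cholesterol and bile acids, release glucose in fasting and break down amino acids, under a network of transcription factors that includes HNF4A and ONECUT1. Alpha-fetoprotein is the fetal relative of albumin and is a well-known product of HepG2 cells.

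The libraries held 3051755 to 4793757 counts. KEAP1 mRNA, which a cut by Cas9 need not lower, had a mean of 77.7 CPM with sgCtrl, 59.2 with sgKEAP1-1 and 79.5 with sgKEAP1-2 and passed the test with neither guide (adjusted p = 0.211 and 0.952, edgeR's quasi-likelihood test, Benjamini-Hochberg over 11064 features). Of 19 measured NRF2 targets that the study names, 15 rose with sgKEAP1-1 and 18 with sgKEAP1-2, and none fell. All 13 hepatocyte markers listed were in the table, against none of 7 endothelial and 3 of 10 fibroblast and stellate cell markers. The summed fibroblast and stellate cell markers lay between 51.7 and 74.1 CPM over all 9 libraries. Of 8 immune cell markers 4 were in the table and none passed the test (1 was lower with sgKEAP1-1 with the replicate numbers as a block), and their summed level was the highest of each group in library 2 (1749, 2439 and 1514 CPM). Outside the set, 3 of 12 hepatocyte markers fell (5 with that block) and 1 rose with sgKEAP1-1, and 4 fell and 1 rose with sgKEAP1-2. Of 5 cholangiocyte markers measured, KRT19 and SPP1 rose with each guide: KRT19 by 1.28 with sgKEAP1-1 and 1.48 with sgKEAP1-2 on the log2 scale (adjusted p = 0.00193 and 0.000346) and SPP1 by 2.65 with sgKEAP1-1 and 3.08 with sgKEAP1-2 on the log2 scale (adjusted p = 0.000482 and 9.09e-05). Their part in the low hepatocyte genes was not tested, and in bulk RNA fewer cells of a type and less RNA per cell cannot be told apart. Library 2 stood apart from libraries 1 and 3 with sgCtrl and sgKEAP1-1, and library 3 from libraries 1 and 2 with sgKEAP1-2. The chi-square per degree of freedom of the counts was 10.1 and 10.4 for pairs with sgCtrl library 2 against 4.68 for the other pair, 15.5 and 17.3 against 4.68 with sgKEAP1-1, and 15.2 and 23.7 for pairs with sgKEAP1-2 library 3 against 6.62. In each group the summed level of 34 cell cycle genes was lowest in library 2 (5925 CPM against 6548 and 8013 with sgCtrl, 3672 against 6285 and 7119 with sgKEAP1-1, 3919.8 against 5509.7 and 6561 with sgKEAP1-2). Members that rest on sgCtrl library 2 are given with and without it below. Without sgKEAP1-2 library 3, 4 members no longer met the rule (AQP3, BHMT, TUSC8 and 1 feature without a number).

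Promoter sequences are shown for members with the letters TATAAA shortly before the start, and for ALB, the most abundant member. TATAAA is 1 form of the TATA box, the element that fixes where transcription starts in many tissue-specific genes. Other forms were not searched for. RefSeq windows (GRCh38.p14, 250 bases before to 50 after the annotated start, the first listed for each gene) covered 69 of the 91 named members. That is 75.8%, below the 80% needed for a comparison of motif shares between members and other genes, and none was made. The letters TATAAA began 20 to 40 bases before the start, on the strand of the gene, in 11 of the 69 members with a window. This was so for 2.55% of all 27305 RefSeq windows, but too few members had a window and nothing is read from the difference. The 9 of these that the rule for named members covers are shown with ALB, and AQP3 and NFATC2 are the others. The 100 bases before the start are given 5′ to 3′ on the strand of the gene. Capitals mark that TATAAA and the CCAAT box, read as CCAAT on either strand (ATTGG on the opposite one), which 18.7% of all windows hold in this stretch.
ALB (chr4:73404187-73404286, plus strand): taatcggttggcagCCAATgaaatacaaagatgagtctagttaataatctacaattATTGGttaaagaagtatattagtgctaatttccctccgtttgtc
AFP (chr4:73436121-73436220, plus strand): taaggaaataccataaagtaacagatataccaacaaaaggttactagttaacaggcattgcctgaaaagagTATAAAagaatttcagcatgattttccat
LEAP2 (chr5:132873568-132873667, plus strand): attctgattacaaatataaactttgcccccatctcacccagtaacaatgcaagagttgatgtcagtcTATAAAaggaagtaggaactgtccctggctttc
HMGCS1 (chr5:43313413-43313512, minus strand): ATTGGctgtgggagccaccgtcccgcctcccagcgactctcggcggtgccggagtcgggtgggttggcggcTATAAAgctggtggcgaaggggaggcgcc
FABP1 (chr2:88128063-88128162, minus strand): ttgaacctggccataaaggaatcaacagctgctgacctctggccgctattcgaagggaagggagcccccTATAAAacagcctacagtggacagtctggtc
G6PC1 (chr17:42900699-42900798, plus strand): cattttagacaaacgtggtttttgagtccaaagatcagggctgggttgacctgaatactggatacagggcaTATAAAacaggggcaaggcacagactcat
BHMT (chr5:79111709-79111808, plus strand): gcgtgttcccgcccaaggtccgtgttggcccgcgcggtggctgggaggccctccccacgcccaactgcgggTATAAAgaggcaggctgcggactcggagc
ANGPTL4 (chr19:8364055-8364154, plus strand): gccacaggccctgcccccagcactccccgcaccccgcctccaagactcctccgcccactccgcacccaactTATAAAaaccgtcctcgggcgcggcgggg
TNFSF10 (chr3:172523431-172523530, minus strand): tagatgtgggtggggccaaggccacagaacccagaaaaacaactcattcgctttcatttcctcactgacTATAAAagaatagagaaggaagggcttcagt
ACTA1 (chr1:229434095-229434194, minus strand): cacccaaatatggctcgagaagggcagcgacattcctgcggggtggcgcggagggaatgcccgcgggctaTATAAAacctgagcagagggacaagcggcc
The TATAAA began 29 bases upstream in AFP, HMGCS1, G6PC1, BHMT and ANGPTL4, 30 in ACTA1, 31 in FABP1 and TNFSF10, and 33 in LEAP2. ALB held no TATAAA there and 2 CCAAT boxes, 1 on each strand, and HMGCS1 held 1 on the opposite strand. The stretches ranged from 31% G and C in AFP to 71% in ANGPTL4 and BHMT. A match describes letters in the window, and binding was not measured.

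Together the 98 features held 24849 CPM in the control (SD 2933, n = 3), 11095.0 CPM with sgKEAP1-1 (SD 1610.4, n = 3) and 6945 CPM with sgKEAP1-2 (SD 952, n = 3). Most of this was albumin and alpha-fetoprotein mRNA. Without ALB and AFP the sums were 5564, 2340.4 and 1535 CPM, so that 42.1% and 27.6% of the control sum were left. The median member was left at 39.8% of its control mean by sgKEAP1-1 and at 28.8% by sgKEAP1-2, and 7 members were at 25% or less with sgKEAP1-1 against 38 with sgKEAP1-2. The set leaned to low genes: the median control mean was 18.8 CPM against 35.2 CPM over the 10152 features, and 33 members lay between 5 and 10 CPM.

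All 6 KEAP1 libraries lay below all 3 control libraries in 86 of the 98 members. This was so for 6.83% of the 10152 features, but the rule used the same contrast and nothing is read from the excess. The sgKEAP1-1 means alone met the ratio for 110 features and the sgKEAP1-2 means alone for 289, so the set was 89.1% of the first list and 33.9% of the second.

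**Figure D1:**
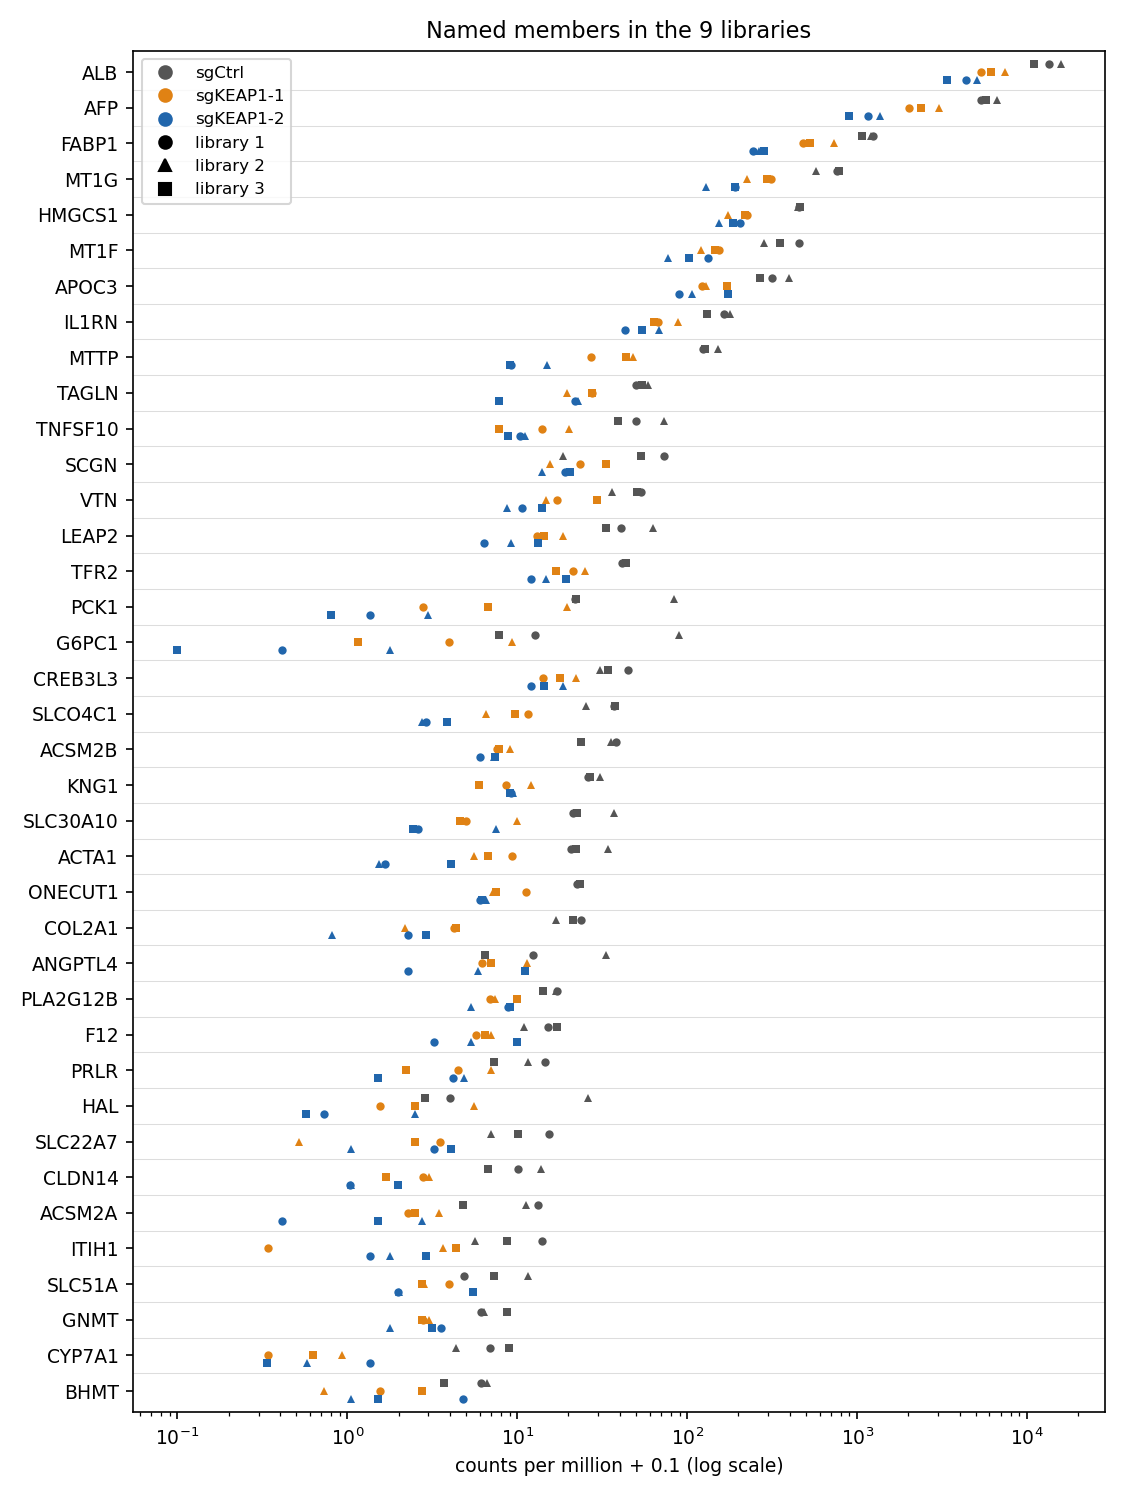
Level of the members described by rule in the 9 libraries, as CPM plus 0.1 on a log axis, with colour for the guide and shape for the library number. ALB, at a control mean of 13379.5 CPM, is the highest, and G6PC1 and PCK1 show sgCtrl library 2 (89.1 and 82.9 CPM) far above the other control libraries.

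Where 2 percentages stand together below, the first is the share of the control mean left by sgKEAP1-1 and the second that left by sgKEAP1-2. Secreted proteins of blood and defence made up 10 members, with medians of 43.3% and 28.5% of control left by sgKEAP1-1 and sgKEAP1-2. ALB encodes albumin, the main carrier protein of plasma, and was at 13481, 15724 and 10934 CPM in the sgCtrl libraries, 5360.4, 7431 and 6087 CPM with sgKEAP1-1 and 4344, 5085 and 3379 CPM with sgKEAP1-2. AFP, alpha-fetoprotein, was at 5336, 6646 and 5736 CPM in the sgCtrl libraries, 2015, 3009.5 and 2361 CPM with sgKEAP1-1 and 1164, 1359 and 899.7 CPM with sgKEAP1-2. In both genes the groups followed each other without overlap, sgCtrl highest and sgKEAP1-2 lowest. ALB was near the limit of the rule: 47.03% and 31.9% of control was left, and it no longer met the rule without sgCtrl library 2 or without sgKEAP1-1 library 1.

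KNG1 encodes kininogen, the precursor of bradykinin, and was at 25.99, 30.5 and 26.8 CPM in the sgCtrl libraries, 8.51, 11.9 and 5.84 CPM with sgKEAP1-1 and 9.06, 9.33 and 8.91 CPM with sgKEAP1-2. The KEAP1 libraries of KNG1 lay below the controls and the guides overlapped. VTN, which encodes the adhesion protein vitronectin, was at 53.02, 36.04 and 50.6 CPM in the sgCtrl libraries, 17.01, 14.6 and 29.5 CPM with sgKEAP1-1 and 10.6, 8.61 and 13.8 CPM with sgKEAP1-2, with 3 separate groups. LEAP2 encodes a liver peptide that blocks the ghrelin receptor and was at 40.4, 62.9 and 33.2 CPM in the sgCtrl libraries, 12.9, 18.4 and 14.3 CPM with sgKEAP1-1 and 6.25, 9.09 and 13.1 CPM with sgKEAP1-2. Here too the controls stood apart, although the guides overlapped. The interleukin-1 receptor antagonist gene IL1RN (control mean 158 CPM) was left at 46.4% and 34.9%, clotting factor F12 at 43.9% and 42.5% and ITIH1, a hyaluronan-binding protein gene, at 28.7% and 20.5%. The carboxypeptidase gene CPN1 was left at 42.9% and 25.1% and SERPINA4, which encodes the kallikrein inhibitor kallistatin, at 48.5% and 44.3%. All 10 secreted members had every KEAP1 library below every control library.

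CYP7A1, the rate-limiting enzyme of bile acid synthesis, had the lowest share left by sgKEAP1-1 in the set, also without sgCtrl library 1 or 2, and the next to lowest after G6PC1 without library 3. It was at 6.83, 4.26 and 8.84 CPM in the sgCtrl libraries, 0.243, 0.834 and 0.531 CPM with sgKEAP1-1 and 1.25, 0.478 and 0.234 CPM with sgKEAP1-2, which left 8.07% and 9.85% of the control mean, and 5.36% with sgKEAP1-2 without its library 1. The KEAP1 libraries held 1 to 4 reads of CYP7A1 and the controls at least 13, so the groups were separate while the remaining level was poorly determined. HMGCS1 makes HMG-CoA for cholesterol synthesis and was at 456, 446 and 460.4 CPM in the sgCtrl libraries, 226, 174 and 219.5 CPM with sgKEAP1-1 and 203, 154 and 187 CPM with sgKEAP1-2. HMGCS1 had no overlap with the control, and its guides overlapped. SLC51A, a subunit of a bile acid exporter, was at 4.73, 11.5 and 7.19 CPM in the sgCtrl libraries, 3.89, 2.71 and 2.66 CPM with sgKEAP1-1 and 1.87, 1.91 and 5.39 CPM with sgKEAP1-2. Its lowest control lay below the highest KEAP1 library, and it did not meet the rule without sgCtrl library 2. HSD11B2, which inactivates cortisol, was left at 47.5% and 37.5%.

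Lipid handling made up 12 members, with medians of 43.9% and 36.7%. MTTP encodes the transfer protein that loads lipid onto apolipoprotein B for secretion, and was at 124, 152 and 127 CPM in the sgCtrl libraries, 26.97, 47.98 and 43.3 CPM with sgKEAP1-1 and 9.06, 14.8 and 8.91 CPM with sgKEAP1-2. FABP1, the main fatty acid binding protein of liver cytosol, was at 1242, 1208 and 1065 CPM in the sgCtrl libraries, 481, 734 and 526 CPM with sgKEAP1-1 and 242, 266 and 284 CPM with sgKEAP1-2. In MTTP and FABP1 all 3 groups were separate, with sgKEAP1-2 lowest. APOC3, an apolipoprotein that slows the clearance of triglyceride-rich particles, was at 316, 398 and 269 CPM in the sgCtrl libraries, 122, 129 and 170.2 CPM with sgKEAP1-1 and 89.7, 107 and 173 CPM with sgKEAP1-2. Its controls stood apart and the guides overlapped.

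ACSM2A and ACSM2B encode medium-chain acyl-CoA synthetases of mitochondria and lie side by side. They are close copies, and reads of one may be counted to the other, so neither value is certain. ACSM2B was at 37.8, 35.4 and 23.5 CPM in the sgCtrl libraries, 7.53, 8.97 and 7.70 CPM with sgKEAP1-1 and 5.94, 7.17 and 7.27 CPM with sgKEAP1-2, with 3 separate groups, and ACSM2A (control mean 9.65 CPM) was left at 27.3% and 15.02%, and at 8.90% by sgKEAP1-2 without its library 2. TTPA, the vitamin E transfer protein, was left at 35.6% and 37.97%. The lipid set also held CYP2U1, TMEM86B, ETNK2, MID1IP1, PLA2G12B and ANGPTL4, an inhibitor of lipoprotein lipase. Nearest to the limit from inside, with the share left by sgKEAP1-1, were PLA2G12B (49.99%), SCGN (49.7%) and FABP1 (49.5%). Nearest from outside were SRSF12 (50.3%) and TLCD4 (50.5%) by the same guide and BDH2 by sgKEAP1-2 (50.7%).

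G6PC1 and PCK1, the genes of hepatic glucose release, had the lowest shares left by sgKEAP1-2 in the set, 1.82% and 3.80%, and a wide spread among controls. G6PC1 encodes glucose-6-phosphatase, which frees glucose for export, and was at 12.6, 89.1 and 7.74 CPM in the sgCtrl libraries, 3.89, 9.18 and 1.06 CPM with sgKEAP1-1 and 0.312, 1.67 and 0 CPM with sgKEAP1-2. PCK1, which encodes the committed enzyme of gluconeogenesis, was at 21.8, 82.9 and 22.1 CPM in the sgCtrl libraries, 2.67, 19.4 and 6.64 CPM with sgKEAP1-1 and 1.25, 2.87 and 0.703 CPM with sgKEAP1-2. Library 2 was the highest of each group for both genes. The groups of G6PC1 overlapped, and those of PCK1 did not overlap the control. Against the control library of the same number, G6PC1 was left at 30.9%, 10.3% and 13.7% by sgKEAP1-1 and at 2.48%, 1.88% and 0% by sgKEAP1-2, and PCK1 at 12.3%, 23.4% and 30.0% by sgKEAP1-1 and at 5.74%, 3.46% and 3.18% by sgKEAP1-2. Both met the rule with library 2 left out of every group, and also without sgCtrl library 2 alone. In the latter case, with library 2 kept in the KEAP1 groups, the shares were larger: G6PC1 was then left at 46.3% and 6.51% and PCK1 at 43.6% and 7.32%. By sgKEAP1-2 CTXND1 then lay between them, at 6.66%. Without library 2 of the KEAP1 group in turn, G6PC1 was left at 6.78% and 0.428% and PCK1 at 11.01% and 2.31% of the mean of all 3 controls, and without sgKEAP1-2 library 3 G6PC1 was left at 2.72%. The glycolytic enolase gene ENO3, placed by hand with these 2 under glucose metabolism but not a gene of glucose release, was left at 40.4% and 36.1%.

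In 6 members sgCtrl library 2 was at least 2 times each other control library, against 0.985% of the 10152 features. They were PCK1, G6PC1, HAL, ANGPTL2, ANGPTL4 and AQP3. ANGPTL4 was at 12.3, 33.1 and 6.36 CPM in the sgCtrl libraries, 6.08, 11.3 and 6.90 CPM with sgKEAP1-1 and 2.19, 5.74 and 11.02 CPM with sgKEAP1-2. HAL, which starts the breakdown of histidine, was at 3.94, 25.9 and 2.76 CPM in the sgCtrl libraries, 1.46, 5.42 and 2.39 CPM with sgKEAP1-1 and 0.625, 2.39 and 0.469 CPM with sgKEAP1-2. AQP3, a channel for water and glycerol, was at 1.31, 22.9 and 3.32 CPM in the sgCtrl libraries, 2.67, 9.80 and 1.06 CPM with sgKEAP1-1 and 2.81, 7.65 and 0.703 CPM with sgKEAP1-2. In all 3 genes KEAP1 libraries overlapped the controls, and in AQP3 the library 2 values with either guide exceeded 2 of the 3 controls. Without sgCtrl library 2, 11 members no longer met the rule: HAL, ANGPTL2, ANGPTL4, AQP3, ALB, BHMT, FABP1, PLA2G12B, SLC1A2, SLC51A and 1 feature without a number. With library 2 kept in the KEAP1 groups, the guide means of AQP3 then lay above the remaining control mean, at 195% and 161% of 2.31 CPM. All 9 libraries gave 49.1% and 40.5%. HAL was left at 92.2% and 34.7% in place of 28.5% and 10.7%, ANGPTL2 at 94.9% and 51.2% in place of 32.8% and 17.7% and ANGPTL4 at 86.5% and 67.6% in place of 46.8% and 36.6%. Without library 2 of the KEAP1 group in turn, HAL was left at 17.7% and 5.03% and AQP3 at 20.3% and 19.1% of the mean of all 3 controls, and ANGPTL4 at 22.96% without sgKEAP1-2 library 3. Against the control of the same number, AQP3 was left at 204%, 42.7% and 32% by sgKEAP1-1 and at 214%, 33.4% and 21.2% by sgKEAP1-2. With library 2 left out of every group, 119 features met the rule and 17 members no longer did. HAL, ANGPTL2, ANGPTL4 and AQP3 were among the 17. Without sgCtrl library 2 the others moved less: ALB was left at 51.6% and 35.0%, FABP1 at 50.3% and 22.9%, PLA2G12B at 51.2% and 49.0%, SLC1A2 at 52.9% and 42.6% and SLC51A at 51.8% and 51.4%, and BHMT, at 32.8% and 48.8%, had a control mean below the minimum of 5 CPM (4.82 CPM).

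**Figure D2:**
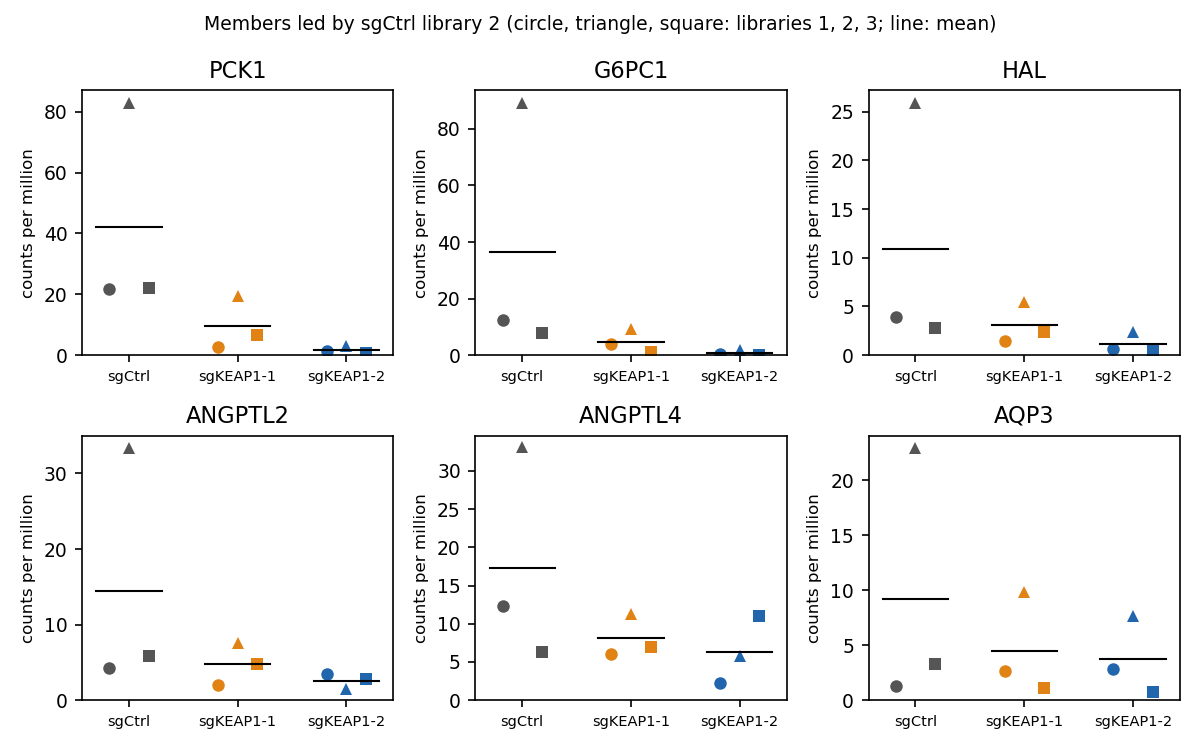
CPM in each library for the 6 members led by sgCtrl library 2, with 1 panel a gene, shapes for library numbers and lines for group means. Library 2 is the highest of every group in PCK1 and G6PC1, and in AQP3 the controls 1 and 3 lie at 1.31 and 3.32 CPM, within the range of the KEAP1 libraries.

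Amino acid metabolism held 6 members (medians 33.3% and 28.8%). GNMT, which uses S-adenosylmethionine to methylate glycine, was at 6.04, 6.23 and 8.57 CPM in the sgCtrl libraries, 2.67, 2.92 and 2.66 CPM with sgKEAP1-1 and 3.44, 1.67 and 3.05 CPM with sgKEAP1-2, below the controls with either guide. The readthrough gene CNPY3-GNMT had the same count in all 9 libraries, so the pair is 1 measurement. BHMT, which remethylates homocysteine with betaine, was at 6.04, 6.55 and 3.59 CPM in the sgCtrl libraries, 1.46, 0.626 and 2.66 CPM with sgKEAP1-1 and 4.69, 0.957 and 1.41 CPM with sgKEAP1-2 and overlapped the controls. CDO1, which oxidizes cysteine, was left at 36.3% and 18.4% and the peptidase gene NAALADL1 at 30.4% and 17.7%, each with 3 separate groups.

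Metal handling held the metallothioneins MT1G, MT1F and MT1M, small proteins that bind zinc and copper, and TFR2. MT1G was at 759.7, 574 and 785 CPM in the sgCtrl libraries, 312, 226 and 295 CPM with sgKEAP1-1 and 191, 128 and 192 CPM with sgKEAP1-2, with 3 separate groups. MT1F was at 457, 284 and 352 CPM in the sgCtrl libraries, 153, 119.7 and 146 CPM with sgKEAP1-1 and 132, 77.2 and 103 CPM with sgKEAP1-2, and its guides overlapped. MT1M (control mean 32.8 CPM) was left at 28.4% and 8.92%, also with 3 separate groups, and at 5.77% by sgKEAP1-2 without its library 1. These genes are close copies, and how reads that match several were counted is not given in the sources used here. TFR2, a transferrin receptor of hepatocytes, was at 41.2, 42.6 and 43.4 CPM in the sgCtrl libraries, 21.1, 24.8 and 16.7 CPM with sgKEAP1-1 and 11.9, 14.6 and 19.2 CPM with sgKEAP1-2, below the controls with overlapping guides. The manganese exporter gene SLC30A10 was at 21.3, 37.03 and 22.4 CPM in the sgCtrl libraries, 4.86, 9.80 and 4.51 CPM with sgKEAP1-1 and 2.50, 7.41 and 2.34 CPM with sgKEAP1-2, which left 23.8% and 15.2%, and 9.005% in place of the latter without sgKEAP1-2 library 2.

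Transporters and channels made up 9 members (medians 40.7% and 25.4%). SLC22A7, a carrier of organic anions, was at 15.2, 6.88 and 9.95 CPM in the sgCtrl libraries, 3.40, 0.417 and 2.39 CPM with sgKEAP1-1 and 3.12, 0.957 and 3.98 CPM with sgKEAP1-2. SLCO4C1, another organic anion carrier, was at 37.01, 25.2 and 37.3 CPM in the sgCtrl libraries, 11.4, 6.47 and 9.56 CPM with sgKEAP1-1 and 2.81, 2.63 and 3.75 CPM with sgKEAP1-2. Both stood below the controls, and SLCO4C1 also separated the guides. The sodium channel genes SCN9A and SCN1A (control means 68.9 and 19.9 CPM) were left at 40.8% and 25.4% and at 35.2% and 12.7%. SCN1A and SCN9A are neighbours among the genes measured, as are ALB and AFP, MT1F and MT1G, ACSM2A and ACSM2B, and MIR1915HG and SKIDA1, so 10 of the 91 placed members fell in 5 adjacent pairs. The amino acid transporter genes SLC1A2 and SLC38A11 and the scaffold gene PDZK1 were the others, beside SLC30A10 and AQP3.

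ONECUT1, of the hepatocyte network, was 1 of 8 transcription factor genes. It was at 22.3, 22.9 and 23.2 CPM in the sgCtrl libraries, 11.2, 7.09 and 7.43 CPM with sgKEAP1-1 and 5.94, 6.46 and 6.09 CPM with sgKEAP1-2, with close controls (SD 0.461 CPM, n = 3) and 3 separate groups. CREB3L3, a factor of fasting metabolism, was at 44.6, 30.5 and 34.3 CPM in the sgCtrl libraries, 14.1, 22.1 and 17.8 CPM with sgKEAP1-1 and 11.9, 18.4 and 14.3 CPM with sgKEAP1-2, below the controls with overlapping guides. MIXL1, a homeobox gene of the early embryo (control mean 107 CPM), was left at 40.2% and 24.9%. NFATC2, STAT5A, OSR2, TP73 and SKIDA1 were the others.

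Ligands, receptors and their partners made up 10 members (medians 38.2% and 30.1%). TNFSF10, the death ligand TRAIL, was at 49.9, 72.8 and 39.2 CPM in the sgCtrl libraries, 13.9, 20.03 and 7.70 CPM with sgKEAP1-1 and 10.3, 11.0 and 8.67 CPM with sgKEAP1-2. GDF7, a bone morphogenetic protein, was at 45.4, 36.7 and 38.4 CPM in the sgCtrl libraries, 12.4, 11.1 and 14.1 CPM with sgKEAP1-1 and 6.25, 5.98 and 6.33 CPM with sgKEAP1-2. Both stood below the controls, and GDF7 also separated the guides. The receptor genes PRLR (prolactin) and LIFR (leukaemia inhibitory factor) were left at 40.4% and 30.98% and at 47.2% and 38.97%. KISS1R, OXER1, GRB14, RHEX, FSTL4 and ANGPTL2 were the others, and of the 10 only FSTL4 and ANGPTL2 overlapped the controls.

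Matrix, junction and cytoskeleton genes made up 8 members (medians 35.3% and 22.5%), and all 8 stood below the controls in every KEAP1 library. COL2A1, the collagen of cartilage, was at 23.6, 16.7 and 21.3 CPM in the sgCtrl libraries, 4.13, 2.09 and 4.25 CPM with sgKEAP1-1 and 2.19, 0.717 and 2.81 CPM with sgKEAP1-2. ACTA1, skeletal muscle actin, was at 20.5, 34.1 and 22.1 CPM in the sgCtrl libraries, 9.23, 5.42 and 6.64 CPM with sgKEAP1-1 and 1.56, 1.44 and 3.98 CPM with sgKEAP1-2. CLDN14, a tight junction claudin, was at 9.98, 13.8 and 6.63 CPM in the sgCtrl libraries, 2.67, 2.92 and 1.59 CPM with sgKEAP1-1 and 0.937, 0.957 and 1.88 CPM with sgKEAP1-2. Of these only ACTA1 separated the guides. Of 8 skeletal muscle markers 1 was in the table, at a summed 0.829 to 4.54 CPM per library, and of 8 chondrocyte markers 5 were, COL2A1 included, of which SOX6 also fell, with sgKEAP1-2 (adjusted p = 0.0177). With the replicate numbers as a block, 1 of the 4 beside COL2A1 was higher with sgKEAP1-1 and 2 were lower with sgKEAP1-2. TAGLN, an actin-binding protein of smooth muscle, was left at 45.8% and 32.3%, and COL4A6, SCARA3, COBL and TJP3 were the others. The remaining named members were BIRC3, GBP1 and BMF, which act in cell death or defence, the long noncoding RNAs MIR1915HG, CAHM, TUSC8 and ZNF606-AS1, and BEX1, BICC1, CTXND1, MAB21L4, PRRG4, SCGN, SNX22, TMEM170B and TXNDC16. The 4 noncoding RNAs were left at 33.9% to 45.8% by sgKEAP1-1 and at 27.3% to 47.1% by sgKEAP1-2, and the 7 features without a number at 31.6% to 46.3% and at 11.1% to 46%. TUSC8, the lowest of these RNAs with sgKEAP1-1, was left at 21.5% without sgKEAP1-1 library 1.

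The rule did not compare the guides with each other, but it held both means to the same limit, which 110 features met with sgKEAP1-1 and 289 with sgKEAP1-2. Counts and medians of the difference between the guides over the members are therefore a description of a set that the rule shaped. The sgKEAP1-2 mean was below the sgKEAP1-1 mean in 89 of the 98 members, against 51.4% of the 10152 features. All sgKEAP1-2 libraries lay below all sgKEAP1-1 libraries in 27 members, against 4.75% of the features, and above them in 0 members, against 4.94% of the features. The median log2 fold change of sgKEAP1-2 to sgKEAP1-1 was -0.45 over the 91 members tested and -0.00322 over all 11064 features. Single genes seldom passed: MTTP and FABP1 were called, of the 0.0181% of features called lower, and 26 members were lower at an unadjusted p under 0.05, against 2.87% of the 11064 features. MTTP was lower with sgKEAP1-2 by a log2 fold change of -1.84 (SE 0.254, adjusted p = 0.0377, edgeR's quasi-likelihood test) and FABP1 by -1.14 (SE 0.165, adjusted p = 0.0377). When single libraries were left out, the MTTP call was lost in 7 of 9 cases (adjusted p from 0.00664 to 0.251) and the FABP1 call in 8 of 9 (from 0.0323 to 0.251), while the direction stayed, and limma-voom called neither. Both calls held without sgKEAP1-1 library 1, and the MTTP call also without sgKEAP1-2 library 2. AFP had -1.12 (SE 0.181, adjusted p = 0.0874) and was called lower by the DESeq2 Wald test (adjusted p = 4.21e-05) and with the replicate numbers as a block in edgeR (adjusted p = 2.91e-05), where 11 members were called. CYP7A1 (0.14, SE 0.821), KNG1 (0.04, SE 0.268) and GNMT (-0.04, SE 0.395) differed between the guides by less than the standard error.

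**Figure D3:**
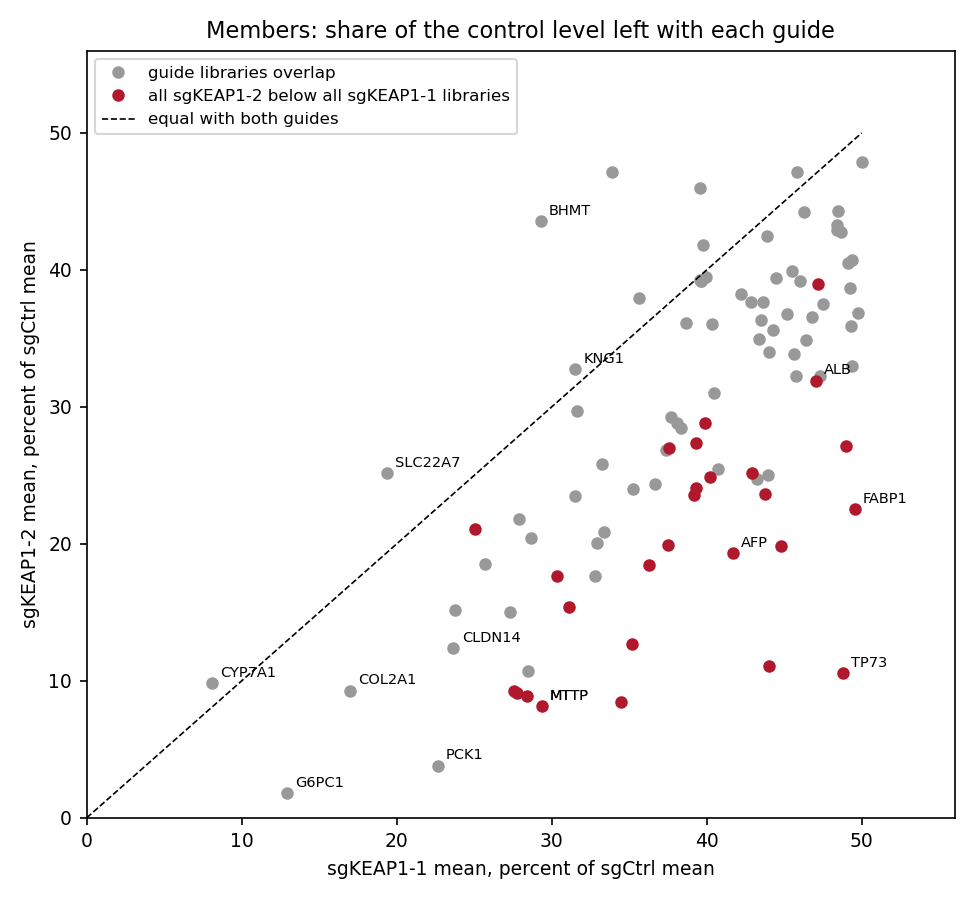
Mean with sgKEAP1-2 against mean with sgKEAP1-1 for the 98 members, each in percent of the sgCtrl mean, with a dashed line for equal levels. Red points are the 27 members whose sgKEAP1-2 libraries all lie below the sgKEAP1-1 libraries, and 89 points lie below the line.

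**Figure D4:**
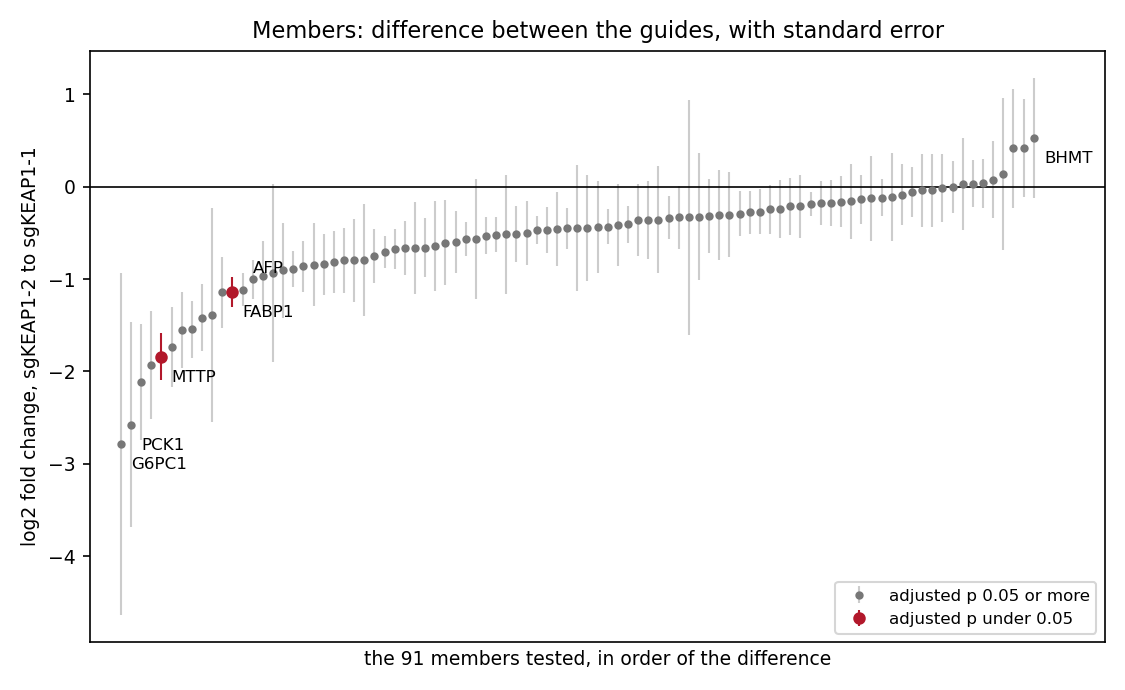
Log2 fold change of sgKEAP1-2 to sgKEAP1-1 for the 91 members tested, in order of size, with standard errors from edgeR's fit and a line at the median of all features. MTTP (-1.84) and FABP1 (-1.14) are the members past the threshold, and G6PC1 has an SE of 1.85.

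Listed genes of the same pathways that are outside the set were read from the same fit. The rule had taken out of each list the genes that both guides halved, and the lists were chosen with earlier results known, so the counts describe what was left. Over all 11064 features 1.4% were called lower and 2.8% higher with sgKEAP1-1, and 4.85% lower and 5.96% higher with sgKEAP1-2. With the replicate numbers as a block, the same features gave 412 lower and 565 higher calls with sgKEAP1-1, and 948 lower and 1008 higher calls with sgKEAP1-2. Of 18 cholesterol synthesis genes, 5 fell and 0 rose with sgKEAP1-1, and 10 fell and 0 rose with sgKEAP1-2 (median log2 fold change -0.51 and -0.62, against -0.000620 and -0.0138 over all features). ACAT2, which joins 2 molecules of acetyl-CoA, fell by 0.73 with sgKEAP1-1 and 0.86 with sgKEAP1-2 on the log2 scale (adjusted p = 0.00805 and 0.00127), and squalene epoxidase (SQLE) fell by 0.59 with sgKEAP1-1 and 0.91 with sgKEAP1-2 on the log2 scale (adjusted p = 0.0124 and 0.000236). The sgKEAP1-1 call of SQLE was lost in 4 of 9 omissions of a library (sgCtrl library 2 or sgCtrl library 3 or sgKEAP1-1 library 1 or sgKEAP1-1 library 2, adjusted p up to 0.0621).

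Of 36 plasma protein genes outside the set, 5 fell and 1 rose with sgKEAP1-1, and 14 fell and 1 rose with sgKEAP1-2. Transferrin (TF) had a mean of 3693 CPM with sgCtrl, 2171 with sgKEAP1-1 and 1697 with sgKEAP1-2 and fell by 0.78 with sgKEAP1-1 and 1.13 with sgKEAP1-2 on the log2 scale (adjusted p = 0.00310 and 7.62e-05). The fibrinogen chain FGB fell by 0.78 with sgKEAP1-1 and 1.16 with sgKEAP1-2 on the log2 scale (adjusted p = 0.00575 and 0.000125). Transthyretin (TTR) went the other way and rose by 0.63 with sgKEAP1-1 and 0.65 with sgKEAP1-2 on the log2 scale (adjusted p = 0.0298 and 0.0131), calls lost in 4 of 9 omissions for sgKEAP1-1 (sgCtrl library 1 or sgCtrl library 3 or sgKEAP1-1 library 1 or sgKEAP1-1 library 2) and in 2 for sgKEAP1-2 (sgCtrl library 1 or sgCtrl library 3, adjusted p up to 0.165 and 0.0793). Of 18 lipoprotein genes outside the set, 3 fell and 0 rose with sgKEAP1-1, and 5 fell and 2 rose with sgKEAP1-2. APOA1, the main protein of HDL, fell by 0.80 with sgKEAP1-1 and 1.13 with sgKEAP1-2 on the log2 scale (adjusted p = 0.0156 and 0.000686), and its sgKEAP1-1 call was lost in 3 omissions (sgCtrl library 1 or sgKEAP1-1 library 1 or sgKEAP1-1 library 2, adjusted p up to 0.101).

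Of 24 hepatocyte transcription factor genes outside the set, 2 fell and 0 rose with sgKEAP1-1, and 4 fell and 0 rose with sgKEAP1-2. HNF4A had a mean of 239.7 CPM with sgCtrl, 179.9 with sgKEAP1-1 and 163 with sgKEAP1-2 and fell by 0.56 on the log2 scale with sgKEAP1-2 (SE 0.132, adjusted p = 0.0126), a call lost in 3 of 9 omissions (sgCtrl library 1 or sgCtrl library 3 or sgKEAP1-2 library 2, adjusted p up to 0.0706). With sgKEAP1-1 its log2 fold change was -0.43 (SE 0.131, adjusted p = 0.0945, and 0.0121 with the replicate block). MLXIPL, the glucose-sensing factor ChREBP, fell by 0.63 with sgKEAP1-1 and 0.88 with sgKEAP1-2 on the log2 scale (adjusted p = 0.0110 and 0.000483), and its sgKEAP1-1 call was lost in 3 omissions (sgCtrl library 1 or sgCtrl library 3 or sgKEAP1-1 library 1, adjusted p up to 0.0685). Of 10 organic anion and cation transporter genes, 1 fell and 0 rose with sgKEAP1-1, and 5 fell and 1 rose with sgKEAP1-2. Of 17 bile acid genes, 1 fell and 1 rose with sgKEAP1-1, and 3 fell and 1 rose with sgKEAP1-2. KLB, a coreceptor for the hormone that restrains CYP7A1, fell by 0.87 with sgKEAP1-1 and 0.76 with sgKEAP1-2 on the log2 scale (adjusted p = 0.00626 and 0.00803), while the canalicular exporter gene ABCC2 rose by 1.04 with sgKEAP1-1 and 1.51 with sgKEAP1-2 on the log2 scale (adjusted p = 0.00618 and 0.000169), where the sgKEAP1-1 call was lost without sgCtrl library 1 (adjusted p = 0.0504).

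Among drug-metabolizing and matrix genes outside the set, higher calls outnumbered lower ones, and many genes were not called. Of 16 drug-metabolizing enzyme genes, none in the set, 0 fell and 5 rose with sgKEAP1-1, and 1 fell and 6 rose with sgKEAP1-2. With the replicate numbers as a block, 4 of these fell and 6 rose with sgKEAP1-2. Of 24 matrix genes outside the set, 2 fell and 8 rose with sgKEAP1-1, and 2 fell and 10 rose with sgKEAP1-2. Among 10 gluconeogenesis and glycogen genes outside the set, 0 fell and 1 rose with sgKEAP1-1, and 1 fell and 1 rose with sgKEAP1-2. The gene that rose was GCKR, the regulator of glucokinase (by 1.77 with sgKEAP1-1 and 2.39 with sgKEAP1-2 on the log2 scale, adjusted p = 0.00236 and 8.46e-05). Of 24 amino acid and urea cycle genes, 0 fell and 2 rose with sgKEAP1-1, and 2 fell and 3 rose with sgKEAP1-2. Of 13 fetal liver genes beside AFP, 1 fell and 1 rose with sgKEAP1-1, and 4 fell and 1 rose with sgKEAP1-2, and the imprinted gene PEG10 fell by 0.88 with sgKEAP1-1 and 1.37 with sgKEAP1-2 on the log2 scale (adjusted p = 0.000310 and 3.29e-06). Of 19 fatty acid and triglyceride synthesis genes, 3 fell and 0 rose with sgKEAP1-1, and 4 fell and 1 rose with sgKEAP1-2. Of 13 PPAR alpha and ketogenesis genes outside the set, 0 fell and 0 rose with sgKEAP1-1, and 3 fell and 1 rose with sgKEAP1-2.

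Of the remaining lists, iron and BMP genes numbered 14 (2 lower and 1 higher with sgKEAP1-1, 3 and 4 with sgKEAP1-2). Wnt targets numbered 16 (0 lower and 0 higher with sgKEAP1-1, 1 and 1 with sgKEAP1-2) and TGF-beta and YAP targets 15 (0 lower and 1 higher with sgKEAP1-1, 1 and 1 with sgKEAP1-2). Growth factor and hormone genes numbered 21 (1 lower and 2 higher with sgKEAP1-1, 2 and 3 with sgKEAP1-2) and cell cycle genes 34 (1 lower and 2 higher with sgKEAP1-1, 4 and 3 with sgKEAP1-2). With the replicate numbers as a block, sgKEAP1-2 had 16 cell cycle genes lower and 3 higher, and 6 growth factor genes lower and 4 higher. Interferon response genes numbered 15 (0 lower and 3 higher with sgKEAP1-1, 0 and 3 with sgKEAP1-2), and muscle actin genes outside the set 11 (0 lower and 0 higher with sgKEAP1-1, 1 and 0 with sgKEAP1-2).

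With the replicate numbers as a block, more listed genes outside the set were called with sgKEAP1-1. Calls over all 11064 features also increased with this block, from 155 to 412 lower and from 310 to 565 higher. Lower calls were 11 of 18 in cholesterol synthesis, 8 of 36 among plasma proteins, 6 of 18 among lipoprotein genes, 5 of 24 among hepatocyte transcription factors, 5 of 10 among transporters, 5 of 19 in fatty acid synthesis, 3 of 17 among bile acid genes, 2 of 24 among amino acid genes, 2 of 16 among Wnt targets, 5 of 12 among hepatocyte markers and 5 of 34 among cell cycle genes. Lower calls were also 3 each among iron and BMP genes and matrix genes, and 1 each among drug-metabolizing enzymes and muscle actin genes. Higher calls also increased, to 4 among plasma proteins, 2 among lipoprotein genes, 4 among amino acid genes and 4 of 14 iron and BMP genes. They were 3 among Wnt targets, 4 of 21 growth factor genes, 7 of 16 drug-metabolizing enzymes and 3 of 34 cell cycle genes. There were 2 each among bile acid genes, fetal liver genes and TGF-beta and YAP targets. Fatty acid synthesis, transporter and muscle actin genes had 1 higher call each.

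**Figure D5:**
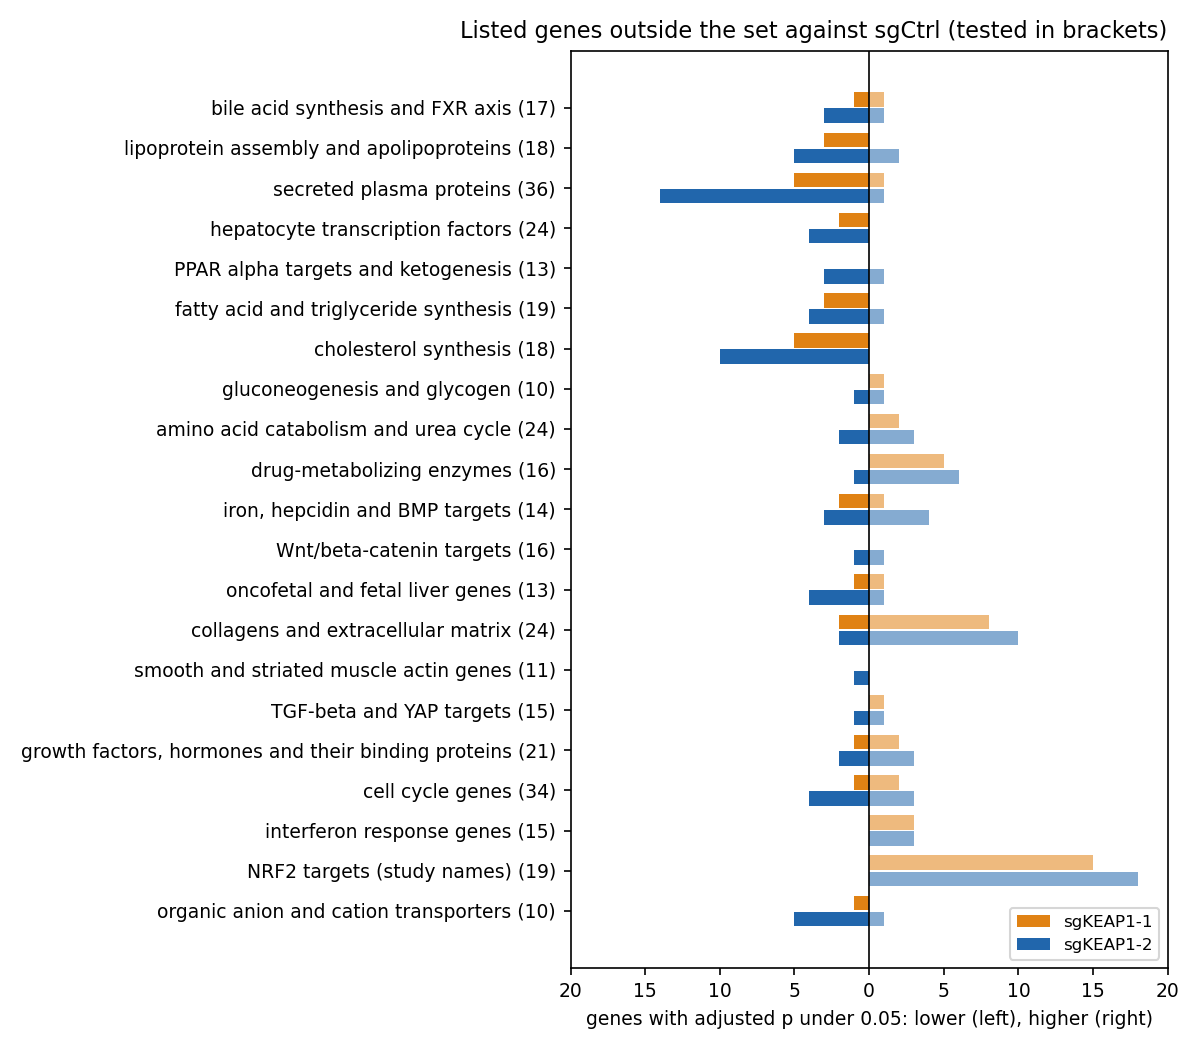
Number of genes of each list outside the set with an adjusted p under 0.05 against sgCtrl, without a block, lower to the left and higher to the right, with the number tested in brackets. Cholesterol synthesis has 5 genes lower with sgKEAP1-1 and 10 with sgKEAP1-2 and 0 higher, and drug-metabolizing enzymes have 5 and 6 higher.

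Membership rested on single libraries for many genes. With each of the 9 libraries left out in turn, 55 members met the rule every time and 43 failed at least once. The 55 included CYP7A1, G6PC1, PCK1, COL2A1, MTTP, AFP, HMGCS1, APOC3, KNG1, VTN, LEAP2, ONECUT1, SLC22A7, SLCO4C1, TNFSF10, GDF7, ACTA1, CLDN14, MT1G, MT1F and MT1M, and the 43 included ALB, FABP1, TFR2, CREB3L3 and SERPINA4. Without sgCtrl library 1, 20 members no longer met the rule, without library 2 there were 11 and without library 3 there were 9. Of the 98, 37 were at 0.5 or less in all 6 pairs of a KEAP1 library with the control of the same number. By symbol, 6 of 204 SLC genes, 2 of 13 CYP genes, 2 of 11 COL genes, 1 of 16 APO genes, 1 of 15 SERPIN genes, 1 of 5 MIR genes, 1 of 246 ZNF genes, 0 of 5 KRT genes and 0 of 25 LINC genes with a control mean of at least 5 CPM were members, beside 0.965% of all such features.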

How the data were processed

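The 9 libraries of HepG2 RNA, 3 for each guide, were grouped by sample title. The authors deposited raw read counts per gene, made from 3′ reads trimmed with cutadapt 1.16, aligned with STAR 2.7.5b and counted with featureCounts 1.6.3 (submitters' processing notes). The notes and the study's methods name different genome builds, and annotation and strand setting are not given in the sources used here, so antisense partners may share reads. Every feature was over 0.5 CPM in at least 3 libraries. Depth was 3051755 to 4793757 counts, and low genes are the least precise.

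CPM used the whole column sum. For tests, 1052 features without an Entrez number (1.34% of reads) were left out, filterByExpr kept 11064, and edgeR 4.0.16 in R 4.3.3 (TMM, robust quasi-likelihood fit, 3 groups in 1 model) gave p-values adjusted by Benjamini-Hochberg, with 0.05 as threshold. The study used limma. Limma-voom 3.58.1, DESeq2 1.42.0, other scalings and filters, a replicate block and the omission of each library were alternatives. The code was tested on simulated data.

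Named with values by rule were the 12 members with the lowest larger ratio, the 8 highest of the rest, those called between the guides, the 3 nearest each side of the limit and members on a gene or marker list. Some genes that these rules name are not reported here. Other members and the listed genes given with values were picked after their values were seen, as was the check of sgCtrl library 2. Roles were assigned by hand once the members were known. The members and lists were chosen with earlier results of these data known. Symbols came from Entrez numbers (11740 of 11746 matched), gene order and promoters from RefSeq.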

Additional observations from a re-analysis of the deposited data

Results flagged for a closer look

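MTTP and FABP1 differed between the KEAP1 guides by the test of that difference (edgeR's quasi-likelihood test). The log2 fold change of sgKEAP1-2 to sgKEAP1-1 was -1.84 in MTTP and -1.14 in FABP1, with adjusted p = 0.0377 in both, and all 3 sgKEAP1-2 libraries were below all 3 sgKEAP1-1 libraries. The MTTP call was lost in 7 of 9 omissions of a library and the FABP1 call in 8 of 9. Limma-voom called neither gene. Groups of 3 libraries are too small for the check for a library far from the others.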

How the results depend on the processing

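No tested result changed direction under an alternative. AQP3, a member, went from 49.1% and 40.5% of control to 195% and 161% without sgCtrl library 2, with library 2 kept in the KEAP1 groups. With library 2 left out of every group, 119 features met the rule, and AQP3 was 1 of 17 members that no longer did. The set of 98 was 65 with a control minimum of 10 CPM, 192 with a minimum of 1 and 37 when every same-numbered pair had to meet the ratio, and 94 to 117 when single libraries were left out. Features called with sgKEAP1-1 (465) were 977 with a replicate block and 278 to 688 without single libraries, and those called with sgKEAP1-2 (1196) were 1956 and 764 to 1291. Between the guides, the 2 calls, both members, became 0 with limma-voom, with at least 10 counts in every library or with only the 2 groups in the fit, 0 to 2 without single libraries, 19 features and 6 members by the DESeq2 Wald test, and 26 features and 11 members with the replicate block. Same-numbered libraries of the 3 groups share a prefix in the labels, which do not say what it marks. Same-numbered libraries deviated together, though unevenly (correlation -0.029 to 0.6, mean 0.28, against a mean of -0.14 for different numbers). The sources used here state no block and the main tests had none, so their p-values do not take this shared part into account. Calls with the replicate block are given as an alternative. By comparison, all 3 same-numbered pairs were over 0.1 for sgKEAP1-1 with sgCtrl (0.226 to 0.461) and 2 of 3 for sgKEAP1-2 with sgCtrl and with sgKEAP1-1, so for sgKEAP1-1 against sgCtrl the block bears on the counts. With sgKEAP1-2 the block raised lower calls over all 11064 features from 537 to 948 and higher calls from 659 to 1008. Lower calls went from 4 to 16 among cell cycle genes, 2 to 6 among growth factor genes, 2 to 5 among amino acid genes, 1 to 4 among drug-metabolizing enzymes, 4 to 7 in fatty acid synthesis and 3 to 5 each among bile acid and PPAR alpha genes. Higher calls went from 1 to 4 among Wnt targets, 1 to 3 among plasma proteins and 0 to 2 each among hepatocyte transcription factor and muscle actin genes. The planned comparison of motif shares was not run, as too few members had a window. For CYP7A1 and other members at a few reads, depth limits the level left.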
